A study of Homo sapiens with 6 samples.

Results

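The androgen-regulated genes described here are 39 gene symbols known from LNCaP, most of them induced by androgen, with OPRK1 and DDC listed as repressed. Kallikreins and UGT2B enzymes were left out of the set. The symbols matched 40 of the 35430 genes in the deposited table, since HERC3 is listed under 2 gene identifiers. The rule takes members by name, but the set was chosen with earlier results of these libraries known, so the comparison with all genes is a description.

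LNCaP is an established human prostate cancer line that responds to androgen. The 6 libraries of oligo-dT-selected RNA comprised 3 of control cells and 3 of cells given 0.5 µM palbociclib, an inhibitor of the cell cycle kinases CDK4 and CDK6, for 1 week. The sources used here state neither the culture time of the controls nor the androgen content of the medium, so treatment and time in culture cannot be told apart. Nothing says that the libraries of a group came from separate cultures, so the p-values reflect variation among these 6 libraries alone, part or all of which could be technical.

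Androgens are steroid hormones that act on transcription through androgen response elements in DNA, which usually lie in enhancers far from the gene. In luminal prostate cells androgen switches on secretory, lipid-handling and vesicle-trafficking genes, together with feedback factors such as FKBP5, and represses a smaller set. The glucocorticoid receptor recognises nearly the same element, so several of these genes answer to both hormones.

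Most androgen-regulated genes were higher with palbociclib. Of 39 members tested, 29 rose and 2 fell, 8 did not pass, and OPRK1 was left untested by the filter on low counts. The 29 include both entries of HERC3 and so stand for fewer symbols. Over all 21218 genes tested, 38.6% passed an adjusted p of 0.05 by edgeR, with 20.1% higher and 18.5% lower, against 79.5% of members passing and 74.4% higher. A log2 fold change of at least 1 was reached past the threshold by 15 members and by 3.00% of all genes tested. The members' median log2 fold change was 0.79, whereas that of all genes tested was -0.03. In CPM, counts scaled to a common library total with edgeR's TMM factors (trimmed mean of M-values), the summed level of the members was 4406 to 4499 in control libraries and 7941 to 8100 in palbociclib libraries.

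In 29 members tested every palbociclib library lay above every control library, and in 2 every one lay below. The same held, without a test, for 25.7% and 25.3% of all genes tested. When counts were scaled by library size alone, the median of all genes tested moved to -0.14 and the share of calls that were higher went from 52.1% to 36.1%. The members then gave 27 higher and 3 lower, with a median of 0.68. Leaving out 1 library at a time gave 27 to 29 higher members. The lower members went from 2 to 1 without control library 2 or 3 or without palbociclib library 1, 2 or 3, since the call for MAK then ended.

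**Figure D1:**
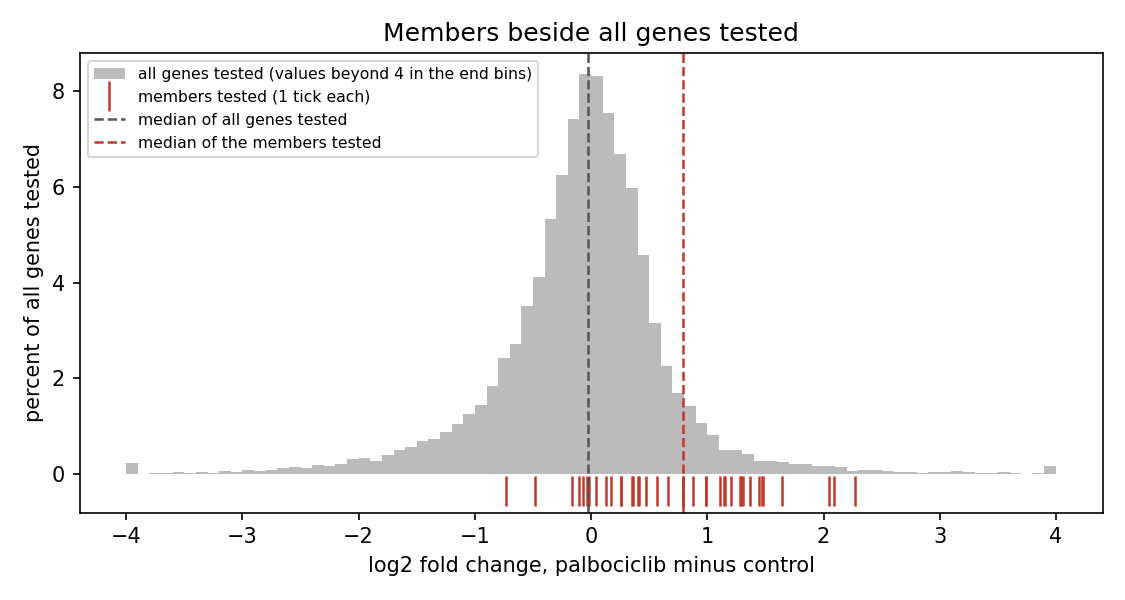
Distribution of log2 fold changes (palbociclib minus control) over the 21218 genes tested as percent per bin of 0.1 (grey), with 1 red tick for each of the 39 members tested and dashed lines at both medians. The members' median stands at 0.79 and that of all genes at -0.03.

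Transcripts of secreted and surface proteins rose in 5 of 6 cases. TMPRSS2 (ENSG00000184012, chromosome 21, 41464300 to 41531116 on hg38, as are all gene positions) encodes a membrane-anchored serine protease and is the gene whose promoter is often fused to ERG in prostate tumours. Control libraries 1, 2 and 3 held 361, 354 and 359.5 CPM of it, and palbociclib libraries 1, 2 and 3 held 985, 999 and 996 CPM. The groups lay far apart, a 2.78-fold rise (log2 fold change 1.47 ± 0.0317 SE, adjusted p = 2.72e-08). TMPRSS2 shares 562 of its 6589 exon bases with MX1 on the opposite strand, and reads of shared bases cannot be told apart where strand is not known.

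ADAMTS1 (ENSG00000154734, chromosome 21, 26835755 to 26845409), a metalloprotease that cleaves matrix proteoglycans, had 293, 279 and 290.5 CPM in controls and 926, 893 and 871 CPM with palbociclib. Every treated library was well above every control, and the rise was 3.12-fold (1.64 ± 0.0388 on the log2 scale, adjusted p = 3.99e-08).

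ACP3 (ENSG00000014257, chromosome 3, 132317369 to 132368298) is prostatic acid phosphatase, an early serum marker of prostate cancer. It was low in controls (8.32, 7.84 and 9.26 CPM) and reached 23.6, 23.1 and 24.2 CPM with palbociclib. The groups did not overlap (1.48 ± 0.0930, adjusted p = 5.89e-06). AZGP1 (ENSG00000160862, chromosome 7, 99966720 to 99976042), a secreted zinc-binding glycoprotein of prostatic fluid, went from 54.0, 50.6 and 55.0 CPM to 134, 134 and 143 CPM, again without overlap (1.37 ± 0.0492, adjusted p = 2.67e-07).

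SPOCK1 (ENSG00000152377, chromosome 5, 136975298 to 137499326), a secreted matrix proteoglycan, was more scattered among controls, with 7.83, 9.77 and 4.64 CPM, than with palbociclib, where it had 18.6, 18.4 and 17.3 CPM. All treated libraries were higher (1.29 ± 0.228, adjusted p = 0.00208), but the size depended on the controls: against control library 3 alone the log2 fold change was 1.96. LRIG1 (ENSG00000144749, chromosome 3, 66378797 to 66501022), a membrane protein that lowers ErbB receptors, did not pass. Its 83.5, 81.95 and 71.6 CPM in controls overlapped the 72.7, 78.5 and 74.7 CPM of treated libraries, and its log2 fold change was -0.07 (95% interval -0.22 to 0.08, adjusted p = 0.436). LRIG1 shares 2669 of 7043 exon bases with SLC25A26 on the other strand.

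**Figure D2:**
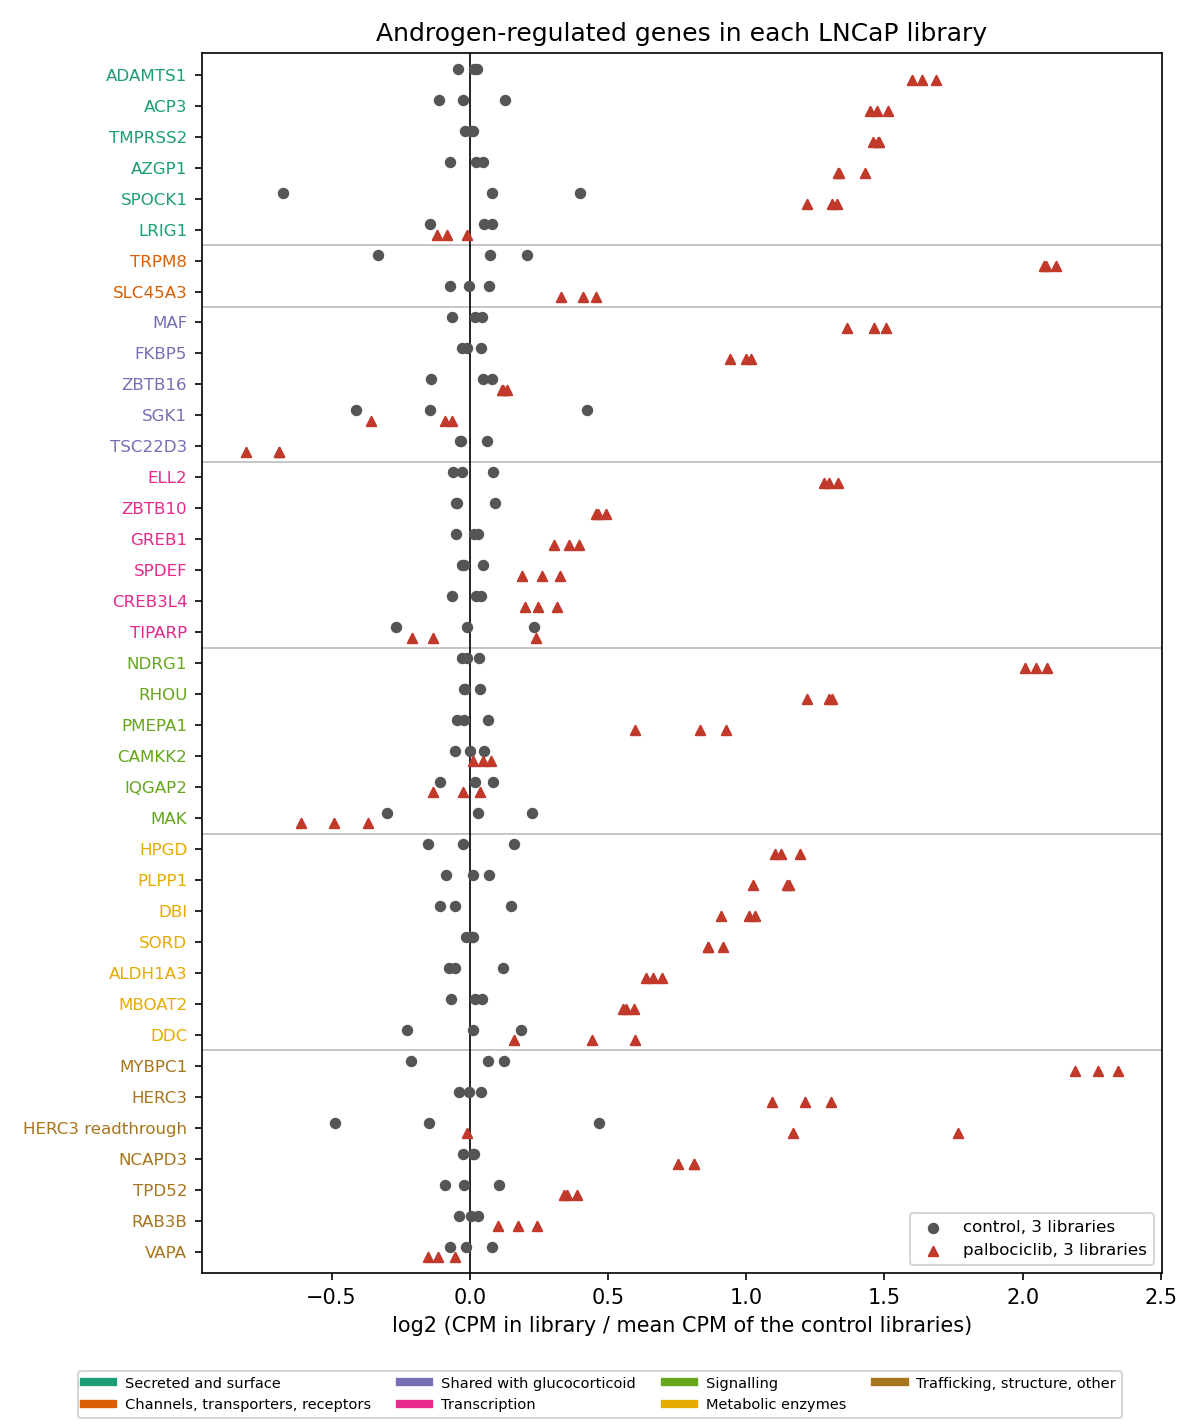
Level of each of the 39 members tested in each library, as log2 of CPM over the mean CPM of the 3 control libraries, for control (grey circles) and palbociclib (red triangles), ordered by role (label colour) and by change. Groups of TMPRSS2, NDRG1, TRPM8 and MYBPC1 lie far apart, whereas those of LRIG1, SGK1, TIPARP, CAMKK2, IQGAP2, DDC, VAPA and the HERC3 readthrough overlap.

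Among membrane channels, transporters and receptors, the cation channel TRPM8 (ENSG00000144481, chromosome 2, 233917373 to 234019522), which opens to cold and menthol, showed a 4.26-fold rise. It had 5.19, 3.58 and 4.74 CPM in controls and 19.0, 19.1 and 19.6 CPM with palbociclib (log2 fold change 2.09 ± 0.143, adjusted p = 9.14e-06). The treated libraries were closely spaced and all well above the controls. SLC45A3, the prostate-restricted membrane protein prostein (ENSG00000158715), rose by less, from 468 ± 22.9 to 618 ± 27.6 CPM (SD, n = 3 each; 0.40 ± 0.0485, adjusted p = 0.000239).

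OPRK1 (ENSG00000082556, chromosome 8, 53225724 to 53251637), the kappa opioid receptor and an androgen-repressed gene, was barely present. It had 13, 8 and 14 estimated counts in controls and 0 in each palbociclib library, where about 4 counts correspond to 1 fragment. The floor used here is 12 counts, or 3 fragments, per library, equal to 0.154 to 0.21 CPM. Control values stood at about that floor, so no fold is given, although every treated library was below every control. The filter on low counts left OPRK1 untested, and in the edgeR fit without that filter it passed as lower (adjusted p = 0.0206). That fit treated each estimated count as if it were a fragment, and OPRK1 was not tested on counts divided by 4.

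The members shared with the glucocorticoid response did not move as a block: of 5, MAF and FKBP5 rose, TSC22D3 fell, and ZBTB16 and SGK1 did not pass. FKBP5 (ENSG00000096060), an HSP90 co-chaperone that tunes steroid receptors, rose from 262 ± 6.40 to 519.5 ± 14.3 CPM (0.99 ± 0.0377, adjusted p = 3.66e-07). MAF (ENSG00000178573, chromosome 16, 79585843 to 79600737), a leucine zipper transcription factor, had 20.1, 20.4 and 18.9 CPM in controls and 56.3, 54.6 and 51.1 CPM with palbociclib. Its groups were widely separated (1.45 ± 0.0613, adjusted p = 6.19e-07).

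TSC22D3 (ENSG00000157514, chromosome X, 107713221 to 107777342) encodes GILZ, an anti-inflammatory leucine zipper protein. It was the member with the clearest fall: 213, 199 and 199.6 CPM in controls and 126, 126 and 116 CPM with palbociclib, with every treated library below every control. The log2 fold change was -0.73 ± 0.0483 (adjusted p = 7.66e-06), a level 1.66-fold lower.

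ZBTB16 (ENSG00000109906, chromosome 11, 114059041 to 114256765), the zinc finger repressor PLZF, had 111, 129 and 126 CPM in controls and 134, 133 and 132 CPM with palbociclib. The treated libraries lay just above the controls, but control library 1 was lower than the other controls and the difference did not pass (0.13, 95% interval -0.01 to 0.26, adjusted p = 0.12). SGK1 (ENSG00000118515, chromosome 6, 134169248 to 134318112), a kinase that regulates ion transport and survival, was low and scattered. Its 2.61, 3.88 and 2.17 CPM in controls spanned the 2.72, 2.25 and 2.76 CPM of treated cells (-0.16, 95% interval -0.70 to 0.38, adjusted p = 0.637). The glucocorticoid receptor gene NR3C1, no member of the set, showed 2.36, 2.47 and 0.749 CPM in the controls, against 0.683, 0.401 and 0.422 CPM with palbociclib. Its call (-1.88 ± 0.467, adjusted p = 0.012) ended without control library 1 (adjusted p = 0.0508) and on log2(FPKM + 1) (0.0591). A filter of at least 1 CPM in 3 libraries left NR3C1 untested. Against control library 3 alone its log2 fold change was -0.57.

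Of 6 transcription factors and cofactors, 5 rose, mostly by little. ELL2 (ENSG00000118985, chromosome 5, 95885098 to 95961851), which speeds elongation by RNA polymerase II, was the exception in size. It had 75.2, 67.9 and 69.5 CPM in controls and 174, 178 and 172 CPM with palbociclib. The groups were well separated, with a 2.47-fold rise (SE 0.0476 on the log2 scale, adjusted p = 2.80e-07).

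The zinc finger protein ZBTB10 rose from 114 ± 6.49 to 158 ± 2.00 CPM (0.47), and GREB1, a steroid receptor coregulator, from 60.3 ± 1.76 to 77.0 ± 2.48 CPM (0.35). SPDEF, an ETS factor of luminal cells, rose from 108.5 ± 3.11 to 130.0 ± 6.13 CPM (0.26 ± 0.0466, adjusted p = 0.00219). CREB3L4, a membrane-bound leucine zipper factor, went from 96.5 ± 3.74 to 115 ± 4.82 CPM (0.25 ± 0.0477, adjusted p = 0.00286). With library size alone these last rises shrank to 0.15 for SPDEF and 0.14 for CREB3L4 and still passed. TIPARP (ENSG00000163659, chromosome 3, 156673235 to 156706770), an ADP-ribosyltransferase that restrains the aryl hydrocarbon receptor, did not pass. Its 12.0, 8.46 and 10.1 CPM in controls overlapped the 12.0, 9.29 and 8.81 CPM with palbociclib (-0.02, 95% interval -0.40 to 0.36, adjusted p = 0.943).

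Of 6 signalling genes, 3 rose, MAK fell, and CAMKK2 and IQGAP2 did not pass. NDRG1 (ENSG00000104419, chromosome 8, 133237175 to 133302022), a differentiation-linked gene that hypoxia also induces, counted 102, 103 and 106.5 CPM in control libraries and 430.5, 442 and 418 CPM with palbociclib. The spread within groups was small beside the 4.14-fold difference (2.05 ± 0.0390, adjusted p = 1.52e-08).

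RHOU (ENSG00000116574, chromosome 1, 228735479 to 228746664), an atypical small GTPase, had 64.5, 62.05 and 62.1 CPM in controls and 155, 156 and 146 CPM with palbociclib, without overlap (1.28 ± 0.0426, adjusted p = 2.06e-07). PMEPA1, which dampens TGF-beta signalling, rose from 138 ± 5.68 to 238 ± 27.4 CPM (0.79 ± 0.0778, adjusted p = 7.29e-05). It shares 343 of 5732 exon bases with NKILA on the opposite strand.

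MAK (ENSG00000111837, chromosome 6, 10762723 to 10838531), a kinase first described in male germ cells, was low and lower still with palbociclib. It had 5.24, 7.54 and 6.59 CPM in controls and 4.23, 5.00 and 4.59 CPM in treated cells, groups that did not overlap but came close. The log2 fold change of -0.48 ± 0.165 had an adjusted p of 0.0454, and the call ended in 7 of 17 other settings (adjusted p from 0.0194 to 0.147). Without control library 2 the adjusted p was 0.147, without control library 3 it was 0.0899, and without palbociclib library 1, 2 or 3 it was 0.13, 0.0703 or 0.0967.

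CAMKK2 (ENSG00000110931, chromosome 12, 121237675 to 121298308), a calcium-dependent kinase upstream of AMPK, had 105, 101 and 97.8 CPM in controls and 107, 105 and 102 CPM with palbociclib (0.04, 95% interval -0.05 to 0.14, adjusted p = 0.456). IQGAP2 (ENSG00000145703, chromosome 5, 76403285 to 76708132), a cytoskeletal scaffold protein, had 78.4, 71.8 and 81.95 CPM in controls and 70.6, 79.4 and 76.1 CPM in treated libraries (-0.04, 95% interval -0.18 to 0.10, adjusted p = 0.676). In both genes the treated libraries lay among or close to the controls.

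**Figure D3:**
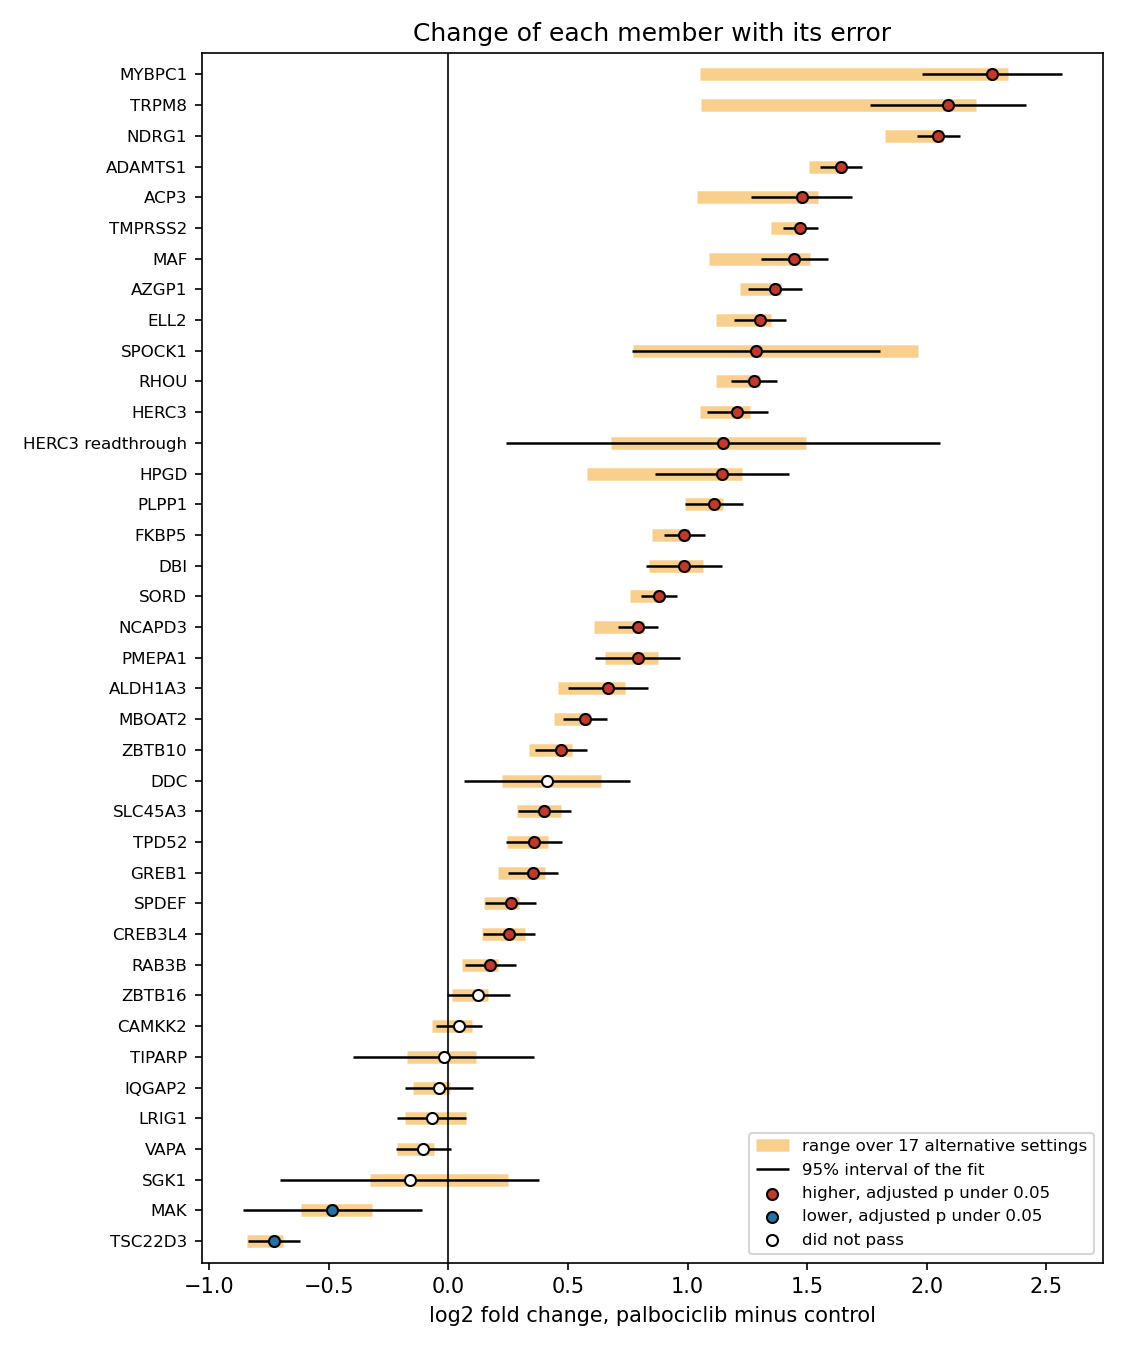
Log2 fold change (palbociclib minus control) of the 39 members tested, with the 95% interval of the edgeR fit (black line) and the range over 17 alternative settings (orange band). Filled points passed an adjusted p of 0.05, and the bands of 5 members (MAK, RAB3B, DDC, VAPA and the HERC3 readthrough) include settings in which the call changed.

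Transcripts of metabolic enzymes rose in 6 of 7 cases, with DDC as the member that did not pass. PLPP1 (ENSG00000067113, chromosome 5, 55424854 to 55534969), which dephosphorylates lysophosphatidic acid and related lipids, had 112, 120.3 and 125 CPM in controls and 266, 265 and 243 CPM with palbociclib. The groups were clearly separate (1.11 ± 0.0539, adjusted p = 1.21e-06), and 481 of its 1935 exon bases are shared with MTREX on the other strand. HPGD (ENSG00000164120, chromosome 4, 174490175 to 174523065), the dehydrogenase that inactivates prostaglandins, went from 4.46, 5.54 and 4.88 CPM to 11.4, 10.8 and 10.7 CPM, without overlap (1.14 ± 0.123, adjusted p = 0.000121).

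SORD, which turns sorbitol into fructose, rose from 559 ± 5.29 to 1029 ± 21.8 CPM (0.88 ± 0.0329, adjusted p = 3.24e-07). DBI, the acyl-CoA-binding protein, rose from 70.5 ± 6.77 to 139.7 ± 6.27 CPM (0.99), ALDH1A3, which makes retinoic acid, from 20.2 ± 1.51 to 32.0 ± 0.643 CPM (0.67), and the lysophospholipid acyltransferase MBOAT2 from 159.5 ± 6.41 to 237 ± 3.45 CPM (0.57). ALDH1A3 shares 1715 of 5335 exon bases with its antisense gene ALDH1A3-AS1, and smaller overlaps with other genes were found for ZBTB10 (594 bases), TPD52 (877), CREB3L4 (280), MAK (94) and TSC22D3 (71).

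DDC (ENSG00000132437, chromosome 7, 50458436 to 50564334), the decarboxylase that makes dopamine and serotonin, is the other member listed as androgen-repressed. Controls held 8.31, 9.37 and 7.03 CPM of DDC, and treated libraries 11.2, 12.5 and 9.20 CPM. The lowest treated library lay just under the highest control, and the log2 fold change of 0.41 (95% interval 0.06 to 0.76 without adjustment) did not pass (adjusted p = 0.0622). In 4 of 17 other settings it passed as higher, which were DESeq2 (adjusted p = 0.0273), the fit with a replicate block (0.0271), and the fits without control library 2 (0.0453) or palbociclib library 3 (0.0303). Its log2 fold change was between 0.23 and 0.64 in all 17.

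Trafficking, structural and other genes rose in 6 of 7 cases, with both entries of HERC3 among the rises. MYBPC1 (ENSG00000196091, chromosome 12, 101568353 to 101686028), a myosin-binding protein of slow muscle, had the largest change of the set. Controls held 2.86, 3.48 and 3.62 CPM and palbociclib libraries 15.1, 16.9 and 16.1 CPM. The 4.83-fold difference was far beyond the spread within groups (2.27 ± 0.128, adjusted p = 3.12e-06).

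HERC3, a ubiquitin ligase, has 2 entries in the table. The entry with more counts (ENSG00000138641, chromosome 4, 88592434 to 88708539) had 113, 109.8 and 116 CPM in controls and 241, 279 and 262 CPM with palbociclib, without overlap (1.21 ± 0.0562, adjusted p = 9.71e-07). The other entry (ENSG00000287542, chromosome 4, 88523810 to 88708450) is called the readthrough here, as a label only. It shares 4844 of its 4967 exon bases with the former entry, so the division of reads between them is uncertain. The readthrough had 14.45, 11.4 and 22.1 CPM in controls and 54.5, 15.9 and 36.0 CPM in treated libraries. These groups overlapped, and the call (1.15 ± 0.399, adjusted p = 0.0493) ended in 11 of 17 other settings, with log2 fold changes of 0.69 without palbociclib library 1 and 0.68 against control library 3 alone. The adjusted p was 0.182 and 0.464 in these fits. The call also ended without control library 1 (adjusted p = 0.143), control library 2 (0.145) or palbociclib library 3 (0.089).

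NCAPD3, a subunit of condensin II, rose from 125 ± 1.81 to 216 ± 5.12 CPM (0.79 ± 0.0367, adjusted p = 9.54e-07), although 1889 of its 18698 exon bases are shared with JAM3. TPD52, a vesicle-trafficking protein amplified in prostate tumours, rose from 239 ± 16.8 to 306.5 ± 5.03 CPM (0.36). RAB3B, a GTPase of secretory vesicles, went from 95.3 ± 2.29 to 108 ± 5.31 CPM (0.18 ± 0.0470, adjusted p = 0.0171). It no longer passed when scaled by library size only (0.06, adjusted p = 0.331), on log2(FPKM + 1) (0.381) or log2(FPKM + 0.1) (0.379), without control library 1 (0.0691), without palbociclib library 2 (0.0772) or against control library 3 alone (0.13). VAPA (ENSG00000101558, chromosome 18, 9914016 to 9960021), which tethers the endoplasmic reticulum to other membranes, had 102, 106 and 113 CPM in controls and 98.9, 103 and 96.5 CPM with palbociclib. The groups overlapped and it did not pass (-0.10, 95% interval -0.22 to 0.01, adjusted p = 0.139), but it passed as lower in 3 settings, with library size alone (-0.22, adjusted p = 0.00838), on log2(FPKM + 1) (0.0222) and on log2(FPKM + 0.1) (0.0209).

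Levels of different genes were compared per length, in FPKM (fragments scaled to exon length and to the mapped total) as the authors deposited it. SLC45A3 was the most abundant member in both groups, at 124.7 ± 6.26 FPKM in controls and 153 ± 6.41 FPKM with palbociclib. In controls PLPP1 (61.7 ± 3.34 FPKM), SPDEF (56.7 ± 1.56) and TMPRSS2 (54.3 ± 0.372) followed, and the library values of PLPP1 and SPDEF overlapped. With palbociclib TMPRSS2 stood second (139.7 ± 1.35 FPKM), ahead of PLPP1 (123 ± 5.87) and ADAMTS1 (114 ± 3.22), and the latter pair overlapped.

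TSC22D3 moved the other way, from 6th of 40 in controls (41.1 ± 1.56 FPKM) to 17th (23.0 ± 1.04 FPKM). At the lower end, MYBPC1 (0.440 ± 0.0553 to 1.98 ± 0.112 FPKM) and TRPM8 (0.561 ± 0.102 to 2.24 ± 0.0395 FPKM) kept low levels after the largest rises of the set, and SGK1 was at 0.279 ± 0.0863 FPKM in controls. NDRG1 climbed from 22nd (8.64 ± 0.169 FPKM) to 15th (33.2 ± 0.886 FPKM).

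**Figure D4:**
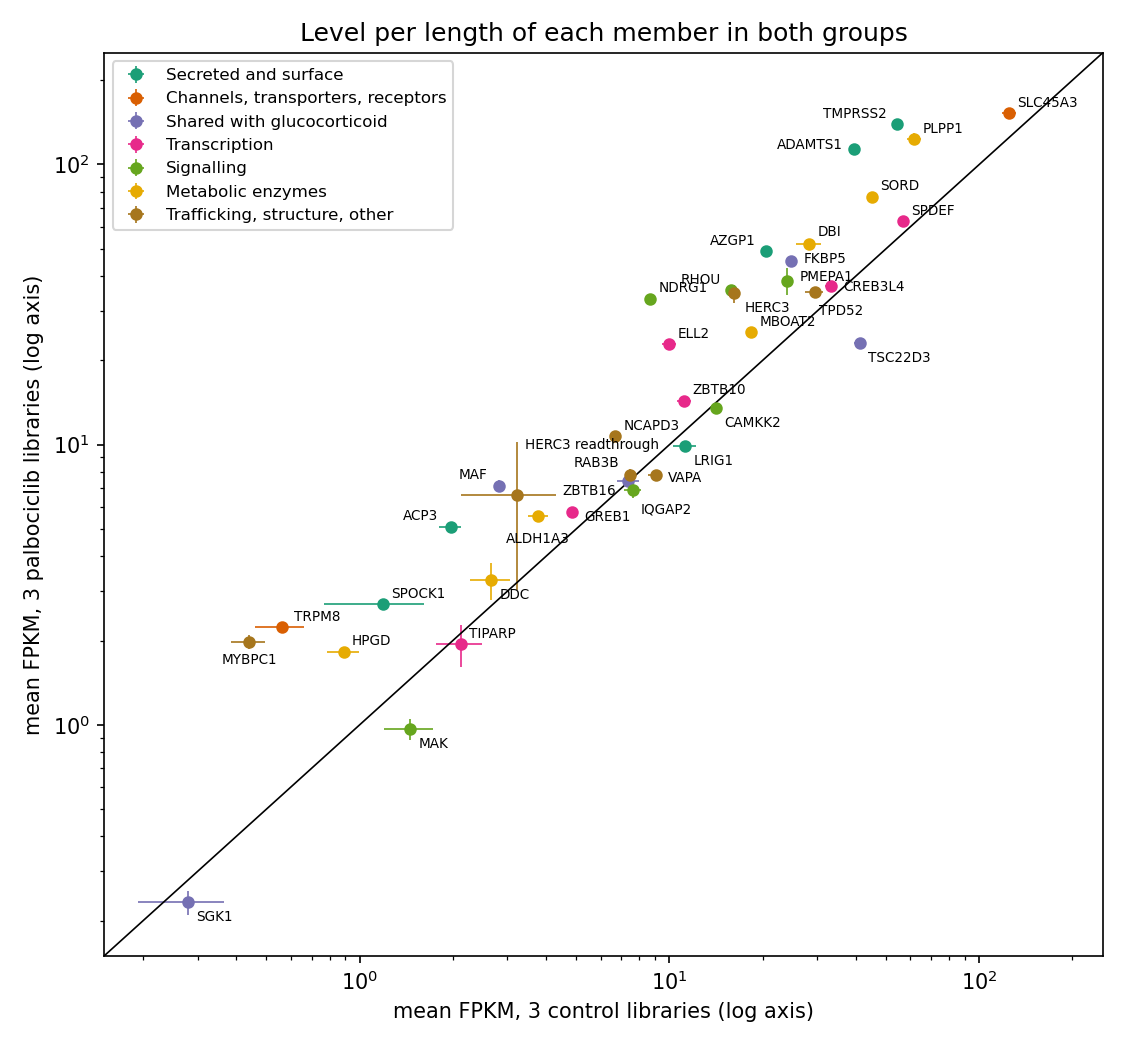
Mean FPKM of the 39 members tested in 3 palbociclib libraries against that in 3 control libraries, on log axes, with SD bars and the line of equal levels; colours mark the role. SLC45A3 is highest in both groups at 124.7 and 153 FPKM, TSC22D3 lies farthest below the line, and NDRG1, MYBPC1 and TRPM8 lie farthest above it.

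The sequences around the members' starts were examined for the letters of the androgen response element, shown here for MYBPC1 and TRPM8, which had the largest rises, and for each match found. RefSeq promoters (GRCh38.p14, 250 bases before to 50 after the start) were at hand for 27 of 39 symbols. The half-site AGAACA, or TGTTCT on the other strand, occurred in 3 of these promoters (11.1%), against 9.67% of the 12898 promoters of tested genes. The full element, AGAACA and TGTTCT with 3 bases between them, occurred in none of the 27 and in none of the 12898. Capitals mark half-sites. The MYBPC1 window, at chr12:101594721-101595020 on the plus strand, has 1, at position -192 counted from the start that RefSeq gives. That start lies inside the gene as the deposited table bounds it. Other RefSeq starts also differ from the deposited ones. The RHOU window, at chr1:228644397-228644696, lies far before the deposited start at 228735479. The HERC3 window, at chr4:88523593-88523892, spans the start of ENSG00000287542 (88523810) and lies far before that of ENSG00000138641 (88592434). Neither of these windows has a half-site. The TRPM8 window, at chr2:233917123-233917422 on the plus strand, has none. FKBP5 and PMEPA1, both on the minus strand of chromosomes 6 and 20, hold 1 each at or just after the start, shown in 30 bases.
MYBPC1: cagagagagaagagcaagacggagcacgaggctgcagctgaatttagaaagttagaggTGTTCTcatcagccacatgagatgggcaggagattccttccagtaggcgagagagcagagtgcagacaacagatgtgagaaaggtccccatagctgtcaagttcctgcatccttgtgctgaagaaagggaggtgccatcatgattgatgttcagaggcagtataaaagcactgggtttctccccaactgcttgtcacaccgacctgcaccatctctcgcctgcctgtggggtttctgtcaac
TRPM8: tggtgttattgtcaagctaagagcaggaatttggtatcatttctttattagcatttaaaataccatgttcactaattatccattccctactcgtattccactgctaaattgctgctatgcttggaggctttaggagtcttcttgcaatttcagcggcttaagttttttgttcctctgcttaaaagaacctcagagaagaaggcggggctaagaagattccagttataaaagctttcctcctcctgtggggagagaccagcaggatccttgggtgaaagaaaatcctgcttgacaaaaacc
FKBP5: caccactaccccAGAACAaactcctacctc
PMEPA1: cttgacttctccAGAACAagcctcctggtc

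Within 50 kb of the gene starts of GENCODE 44 on hg38, the full element was found near 1 of the 40 members (2.5%) and near 1.7% of the 21206 tested genes with a position there. The member was LRIG1, whose level did not pass the test. The element's midpoint lies at position -9768 in bases counted from the start of LRIG1. It is outside the gene, at chr3:66511024-66511038, and is shown on the strand of LRIG1 with the letters matched in capitals. A match in letters is a description and not evidence of binding, and a window without one says only that these letters are not in it.
LRIG1: gcttccAGAACAccaTGTTCTactggg

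Genes of the pathway outside the set were taken from lists of the same kind, chosen by name. Among 53 other androgen-responsive genes, 34 rose, 7 fell and 12 did not pass, with a median log2 fold change of 0.32. The counts became 33 and 11 with library size alone. Among the lowest adjusted p-values were those of SMS, which makes spermine (129 ± 3.45 to 349 ± 3.15 CPM, 1.43) and the fatty acid elongase ELOVL5 (289 ± 3.82 to 548 ± 10.1 CPM, 0.93).

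The kallikreins KLK3 (0.99), KLK2 (0.31) and KLK4 (0.13) were higher. The adjusted p of KLK4 was 0.048 and became 0.80 with library size alone. That call also ended without control library 1 or 2 or without any 1 of the palbociclib libraries (adjusted p from 0.0597 to 0.163). It ended as well with upper-quartile scaling (0.114), without the filter on low counts (0.0905), with a filter of at least 1 CPM in 3 libraries (0.0614), with a replicate block (0.059) and on log2(FPKM + 1) (0.742) or log2(FPKM + 0.1) (0.747). The call held with RLE size factors, DESeq2, counts divided by 4 and without control library 3. Against control library 3 alone the log2 fold change was 0.09. Of 5 other androgen-repressed genes tested, 4 fell: UGT2B15 (32.5 ± 1.92 to 8.49 ± 0.414 CPM, -1.94), UGT2B17 (13.2 ± 1.18 to 5.41 ± 1.09 CPM, -1.28), FOLH1 (563 ± 13.4 to 459 ± 35.4 CPM, -0.29) and PEG10. PEG10, at 20.4, 25.1 and 6.30 CPM in control libraries 1, 2 and 3, was 5.13 to 5.62 CPM with palbociclib, so its fall rested on control libraries 1 and 2, and 3 of the list fell against control library 3 alone. CAMK2N1 did not pass (0.25, adjusted p = 0.311).

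Among transcription factors of the luminal prostate cell, HOXB13 rose (0.48 ± 0.0376, adjusted p = 2.05e-05), GATA2 rose by 0.14 (adjusted p = 0.00918, but 0.519 with library size alone) and FOXA1 fell (-0.34 ± 0.058, adjusted p = 0.00176).

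Library totals were 57082715 to 78117945 estimated counts, with about 4 counts to a fragment. Luminal prostate markers were present, with 8 of 8 tested, 6 higher and 1 lower, and a summed level of 4466 to 4516 CPM in controls and 6810 to 6858 CPM with palbociclib. Of 3 basal markers listed, KRT5 and KRT15 were too low to test and KRT14 rose, and they summed to 1.1 to 2.58 CPM in controls and 2.62 to 4.59 CPM with palbociclib. Of 6 neuroendocrine markers listed, 4 were tested, of which ENO2 fell and none rose. The sums of 34.7 to 37 and 19.2 to 19.9 CPM were mostly ENO2, and CHGA was at 0.0926 to 0.259 CPM in all libraries. Of 5 stromal markers listed, 3 were tested and none passed, with sums of 28.6 to 29.7 and 31.2 to 33.7 CPM that were mostly COL1A1. Of 5 immune markers listed, 4 were tested, of which CD68 rose and PTPRC fell, with sums of 4 to 5.57 and 5.74 to 8.29 CPM. The call for PTPRC (adjusted p = 0.0267 by edgeR) ended in several settings, among them without control library 2 (0.119) and with a replicate block (0.0583). TP63, INSM1, NTS and COL1A2 were not analysed here. Heat shock genes, listed as signs of handling, rose in 7 of 8 cases and summed to 2532 to 2581 and 5514 to 5633 CPM. Of 8 immediate early genes 3 fell and 1, JUNB, rose (adjusted p = 0.0165 by edgeR). In other settings with more than 1 control library, 2 to 5 of the immediate early genes fell, with 5 in DESeq2. The rise of JUNB ended on both FPKM scales, without control library 1 and without palbociclib library 1 or 2. Of 8 proliferation genes 3 fell, among them MKI67 (173 ± 5.76 to 126 ± 3.55 CPM, -0.46), and 2 rose. The count of rises became 0 with library size alone, on both FPKM scales and without control library 1. It was 1 with upper-quartile scaling, without the filter on low counts, with a replicate block and without any 1 of the palbociclib libraries. With DESeq2 or without control library 3 it was 3. The part of these differences in the results was not tested. In RNA of whole cultures, fewer cells of one kind and less RNA per cell cannot be told apart.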

How the data were processed

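RNA-seq was done on 3 control and 3 palbociclib libraries of LNCaP, and groups were taken from the sample labels. The authors deposited estimated counts per gene and FPKM, made with cutadapt 1.9, HISAT2 2.0.4 and StringTie 1.3.4d on hg38, per the submitters' processing notes. The deposited counts are whole numbers, with about 4 counts per fragment as judged from an excess of multiples of 4, and were used as they stand. The strand setting of counting and the annotation release are not given in the sources used here. All 6 columns of samples were assigned by their names.

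Counts were filtered with filterByExpr (minimum count 10, minimum total 15), which left 21218 genes and removed 14212, normalised by TMM (trimmed mean of M-values) and tested with edgeR 4.0.16's quasi-likelihood test in R 4.3.3, p-values being adjusted by Benjamini-Hochberg across the whole table at a threshold of 0.05. Each SE was obtained as the size of the log2 fold change over the square root of the F statistic. FPKM was used for levels between genes and, as log2(FPKM + 1) and log2(FPKM + 0.1), for alternative tests with limma 3.58.1, where the pseudocount shrinks changes of low genes. DESeq2 1.42.0, other scalings and filters, counts divided by 4, a replicate block, control library 3 as the sole control and each library left out were the other alternatives. The pipeline was tested on simulated data. A first, broader recovery criterion was missed for genes of lower counts and was then restricted to well-counted genes. Among the members tested, SGK1, MAK, TIPARP, DDC, HPGD, SPOCK1, MYBPC1 and TRPM8 have mean counts below that restricted range. Recovery at their levels is therefore not covered by the criterion that was met.

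Members and lists were chosen with earlier results of these data known. Values per library are given for members past the threshold with a log2 fold change of at least 1 in size, for members that fell, for OPRK1 and DDC and for those that did not pass. Outside the set, NR3C1, KLK3, UGT2B15, UGT2B17 and FOLH1 are named, with up to 3 genes per list by adjusted p; some genes that this rule names are not reported here. HOXB13, FOXA1, GATA2, KLK2, KLK4, PEG10, CAMK2N1 and single marker genes named beyond these complete the counts of their lists. Floors cover counting error only. Promoters came from RefSeq (GRCh38.p14), with sequence by coordinates from hg38.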

Additional observations from a re-analysis of the deposited data

How the results depend on the processing

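Over 17 alternatives, 34 of the 39 members tested kept their side of the threshold, MAK, DDC, RAB3B, VAPA and the HERC3 readthrough did not, and no call reversed. The direction changed in at least 1 alternative for 5 members that did not pass, LRIG1, SGK1, TIPARP, CAMKK2 and IQGAP2. Of 663 combinations of member and alternative, 24 lost and 7 gained a call. The members' median of 0.79 became 0.68 with library size alone, 0.58 on log2(FPKM + 1) and 0.68 (0.675) on log2(FPKM + 0.1). Leaving out 1 library at a time gave 27 to 29 members higher, 1 to 2 lower and medians of 0.69 to 0.80. Against control library 3 alone, where the lone control is assumed to vary like the other group, 27 were higher and 1 lower, and over all genes 5418 passed in place of 8191. Leaving out the 13 members with overlapping exons left 26, with 19 higher, 0 lower and a median of 0.93; the smaller counts come from fewer members. The share of calls that were higher was 52.1% in the main analysis, 36.1% with library size alone, 37.5% and 37.3% on the FPKM scales and 59.0% against control library 3 alone. On log2(FPKM + 1) the changes of low genes shrank, as that pseudocount does by construction: MYBPC1 to 1.05, TRPM8 to 1.06, SPOCK1 to 0.77, HPGD to 0.58, MAK to -0.32 and GREB1 to 0.21. With a replicate block 30 members were higher and 2 lower, DDC being the added one. Deviations of same-numbered libraries from their group means were nearly uncorrelated (-0.00794, -0.0341 and -0.0311). Those of the other pairs were likewise (-0.017 to 0.0474). With 3 libraries per group this cannot tell whether equal numbers mark a shared culture or day. For the other changes the cause was not tested. OPRK1 was tested only without the filter on low counts and on undivided counts, where it passed as lower (adjusted p = 0.0206) at control values about the floor.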
